A study of Mus musculus with 20 samples.

Results

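The tumor necrosis factor (TNF) superfamily was examined in epididymal white adipose tissue (eWAT). It was taken as its ligands, its receptors, the TRAF proteins that sit under the receptors, and the Tnfaip genes. Tnfaip genes are named for their induction by TNF, except that Tnfaip8l1, Tnfaip8l2 and Tnfaip8l3 are named for their likeness to Tnfaip8. Members were all genes in the deposited table whose symbol was Tnf, Cd40, Fas, Ltbr or Ngfr, or began with Tnfsf, Tnfrsf, Tnfaip or Traf followed by its number or code. The rule took 41 of the 14776 genes: 6 ligand genes, 1 antisense RNA from a ligand locus (Tnfsf13os), 17 receptors, 7 Traf genes, 3 genes for TRAF-interacting proteins and 7 Tnfaip genes. Another 15 symbols that the rule would take, among them Cd40, Ngfr, Tnfsf11 and Tnfrsf9, were not analysed here. All 41 members passed the filter on low values in every comparison.

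RNA sequencing was carried out on eWAT of 20 male C57BL/6J mice that were 6 weeks old when the diets began. The NC group (n = 6) ate normal chow throughout, and the HFD group (n = 7) ate a high-fat diet with 60% of energy from fat for 14 weeks and then received saline by gavage for 6 weeks on the same diet. The SZ-A group (n = 7) had the same high-fat diet and, in those last 6 weeks, SZ-A at 400 mg/kg per day by gavage; SZ-A is the alkaloid fraction of mulberry twig (Ramulus Mori, Sangzhi). Diet-induced obesity in male mice is the model, the tissue is whole fat pad, and HFD against NC asks what the diet changed while SZ-A against HFD asks what the treatment changed on that diet. Expression is given as FPKM (fragments scaled by exon length and by a size of the library). Fold changes are on the log2(FPKM + 1) scale, which understates the change of genes with low values.

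Ligands of the family are trimers that are made on the cell surface and in part shed, and they bind receptors that either carry a death domain or recruit TRAF adaptors, through which they reach NF-kB, kinase cascades or cell death. In fat, TNF is a classical inflammatory cytokine that is made largely by macrophages and that opposes insulin action and adipocyte differentiation. Several receptors are decoys without signalling, and some Tnfaip genes, Tnfaip3 above all, encode feedback inhibitors of the same pathway.

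The regions upstream of 5 members are shown because they carry the contrast described below. Tnfaip3, Tnfaip2 and Traf3 were called in both HFD against NC and SZ-A against HFD and hold a match to the kappaB motif, the site of NF-kB. Tnfrsf1b fell in SZ-A against HFD, with groups that did not overlap, and Fas was the single member called higher there. RefSeq gives a second start for Tnfaip3, whose window holds no kappaB match and is not shown. The sequences are the 250 bases before each gene's start in RefSeq on GRCm38.p6, 5′ to 3′ on the gene's strand, with kappaB matches on either strand in capitals.
Tnfaip3: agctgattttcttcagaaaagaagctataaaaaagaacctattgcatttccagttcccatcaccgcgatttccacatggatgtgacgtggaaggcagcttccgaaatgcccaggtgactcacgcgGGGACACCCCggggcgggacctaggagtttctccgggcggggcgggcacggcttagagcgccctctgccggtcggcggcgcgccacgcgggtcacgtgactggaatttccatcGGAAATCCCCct
Tnfaip2: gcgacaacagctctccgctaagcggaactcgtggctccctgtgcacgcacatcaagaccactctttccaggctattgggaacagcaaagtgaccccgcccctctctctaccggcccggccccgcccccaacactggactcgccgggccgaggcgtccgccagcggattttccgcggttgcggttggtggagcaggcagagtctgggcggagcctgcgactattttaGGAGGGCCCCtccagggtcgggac
Traf3: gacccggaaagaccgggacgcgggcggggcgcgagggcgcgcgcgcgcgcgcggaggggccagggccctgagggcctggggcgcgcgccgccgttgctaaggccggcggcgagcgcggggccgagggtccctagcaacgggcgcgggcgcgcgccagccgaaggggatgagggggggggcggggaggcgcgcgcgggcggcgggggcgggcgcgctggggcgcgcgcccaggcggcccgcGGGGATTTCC
Tnfrsf1b: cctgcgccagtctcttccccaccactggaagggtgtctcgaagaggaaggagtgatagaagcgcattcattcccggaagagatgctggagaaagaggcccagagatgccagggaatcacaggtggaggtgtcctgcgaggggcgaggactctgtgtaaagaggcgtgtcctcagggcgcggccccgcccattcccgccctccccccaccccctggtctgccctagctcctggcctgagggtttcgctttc
Fas: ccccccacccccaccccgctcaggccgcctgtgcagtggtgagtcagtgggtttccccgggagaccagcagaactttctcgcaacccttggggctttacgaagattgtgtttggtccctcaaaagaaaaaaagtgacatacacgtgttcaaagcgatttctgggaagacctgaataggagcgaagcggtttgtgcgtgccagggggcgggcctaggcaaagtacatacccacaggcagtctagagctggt
These windows lie at chr10:19015411-19015660 (Tnfaip3, minus strand), chr12:111442411-111442660 (Tnfaip2, plus strand), chr12:111166120-111166369 (Traf3, plus strand), chr4:145246871-145247120 (Tnfrsf1b, minus strand) and chr19:34290409-34290658 (Fas, plus strand). A RefSeq window from 250 bases before to 50 bases after the start was found for 34 of the 41 members, and 6 of these 34 (17.6%) held a kappaB match, against 9.55% of all 27025 genes with a window. Outside the 3 called members the matches were in Tnfaip8l1, Tnfrsf25 and Tnfrsf8, none of which was called in any comparison. The AP-1 motif TGANTCA was in the windows of 5 members (14.7%, against 8.97% of all genes), Fas, Tnfaip3, Tnfrsf8, Tnfsf13 and Tnfsf13b. The macrophage PU.1 motif GAGGAAGT was in 3 (8.82%, against 3.69%), Traf3, Traf3ip3 and Traf7. Both strands were searched, a match of one motif may overlap another, and a match is only a run of letters.

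Libraries held 13567666 to 19388620 reads, as recovered from the FPKM values, and 1.67% to 11.6% of the reads were mitochondrial. The 10 adipocyte markers summed to 444 to 22523 FPKM in NC, 1305 to 5841 FPKM in HFD and 4274 to 14075 FPKM in SZ-A. The medians of these sums were 14364, 4482 and 6623 FPKM. Gene by gene, the median log2 fold change of the 10 was -0.21 in HFD against NC and 0.95 in SZ-A against HFD. NC replicate 6 stood apart, with 444 FPKM for these markers, Adipoq at 26.6 FPKM against at least 859 in the other NC mice, and the most epithelial marker RNA of all libraries. Of a list of 20 epithelial and epididymal genes only 3 were found (Cdh1, Krt18 and Spint2), and their summed FPKM ran from 11.0 to 762 on chow, from 3.29 to 6.74 on the high-fat diet with saline and from 4.69 to 283 with SZ-A, so that every HFD mouse was below every NC mouse. SZ-A replicate 5 had the most mitochondrial reads (11.6%) and the highest value of its group in 23 of the 41 members (56.1%, against 30.2% of all genes). NC replicate 6 had the lowest value of its group in 19 members (46.3%, against 31.9% of all genes). Several results are given below with and without these mice.

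On the high-fat diet, most of the family was higher than on chow. Of the 41 members 24 were called at an adjusted p below 0.05, 22 higher and 2 lower, in a comparison in which 41.1% of all genes tested were called (21.0% higher and 20.1% lower). The members' median log2 fold change was 0.53, against -0.04 over all genes tested. In 15 members the HFD and NC mice did not overlap, which was so for 20.5% of all genes. A fold change above 1.5 on the log2 scale was reached by 6 members (Tnfrsf1b, Tnfrsf11a, Tnfrsf13b, Tnfaip2, Tnfaip8l2 and Tnfsf12) and by 7.97% of all genes. Without NC replicate 6 the count was again 24, of which 22 were shared: Tnfrsf18 and Tnfsf10 dropped out, and Ltbr and Tnfrsf25 came in. The same was found without NC replicates 1 and 6 together (chosen after seeing the data). All genes called were 6645 and 6686 in these fits, against 6047 with all mice. With the epithelial marker score as a covariate, which separates the 2 diets in these mice, 9 of the 41 members were called. So were 3056 of the 14706 genes tested, and the members were then near the share of all genes called in either direction. Of the 9 members 7 were shared: Tnf, Tnfrsf1b, Tnfrsf11a, Tnfrsf13b, Traf3, Tnfaip2 and Tnfaip8l2.

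Under SZ-A, a smaller set of the same family was lower than in HFD mice. Of the 41 members 12 were called, 11 lower and 1 higher, beside 22.8% of all genes tested (9.47% higher and 13.3% lower). The median log2 fold change of the members was -0.13, against 0.03 over all genes tested. No member passed 1.5 on the log2 scale, which 0.864% of all genes did. At an unadjusted p below 0.05 there were 15 members, for which the share of all genes was not counted. The SZ-A and HFD mice did not overlap in 3 members, Tnfrsf1b, Tnfrsf23 and Fas (6.08% of all genes). Each of the 12 had also been called in HFD against NC, in the opposite direction, but both comparisons share the HFD mice and so are not independent. Without SZ-A replicate 5 the count was 15, with all 12 kept and Tnfsf12, Tnfrsf14 and Traf1 added, all lower. Without the 2 SZ-A libraries richest in epithelial RNA, replicates 2 and 7, it was 10, of which 8 were shared (an alternative chosen after seeing the data). With the epithelial score as a covariate it was 9, of which 7 were shared: Tnfsf13b, Tnfaip2, Tnfaip3, Tnfaip8 and Tnfaip8l2 dropped out, and Tnfrsf21 and Tnfrsf25 came in. The lowest count was 8, without SZ-A replicate 4, when Tnfaip2, Tnfaip8, Tnfrsf11b and Tnfsf13b dropped out. All genes called also changed, from 3349 of the 14695 tested with all mice and no covariate. They were 4296 without SZ-A replicate 5, 3799 without replicates 2 and 7, 2834 with the covariate and 2673 without replicate 4. In the last 2 of these fits the members were near the share of all genes called in either direction.

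SZ-A mice were not back at the chow level in every member. Against NC, 5 members were called, all higher (Tnfrsf1b, Tnfrsf11a, Tnfrsf13b, Tnfaip2 and Tnfaip8l2), beside 4.61% of all genes tested (4.15% higher and 0.455% lower). Tnfrsf11a, Tnfaip2 and Tnfaip8l2 passed 1.5 on the log2 scale, as did 1.79% of all genes, and the groups did not overlap in 5 members (Tnf, Tnfrsf1b, Tnfrsf11a, Tnfaip2 and Tnfaip8l2) and in 3.57% of all genes. The remaining 36 were not called, which does not show that they were at the chow level. The 5 were all among those called in both other comparisons. With the epithelial score as a covariate only 2 members were called, and Tnfrsf13b, Tnfaip2 and Tnfaip8l2 dropped out. A block for the replicate number left 3, without Tnfrsf13b and Tnfaip8l2. Without SZ-A replicate 2, which had the second highest epithelial sum of its group, 9 members were called. The additions were Tnf, Tnfsf12, Tnfsfm13 and Tnfrsf12a. All genes called were 267 with the covariate, 173 with the block and 802 without SZ-A replicate 2, against 678 in the fit reported.

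**Figure D1:**
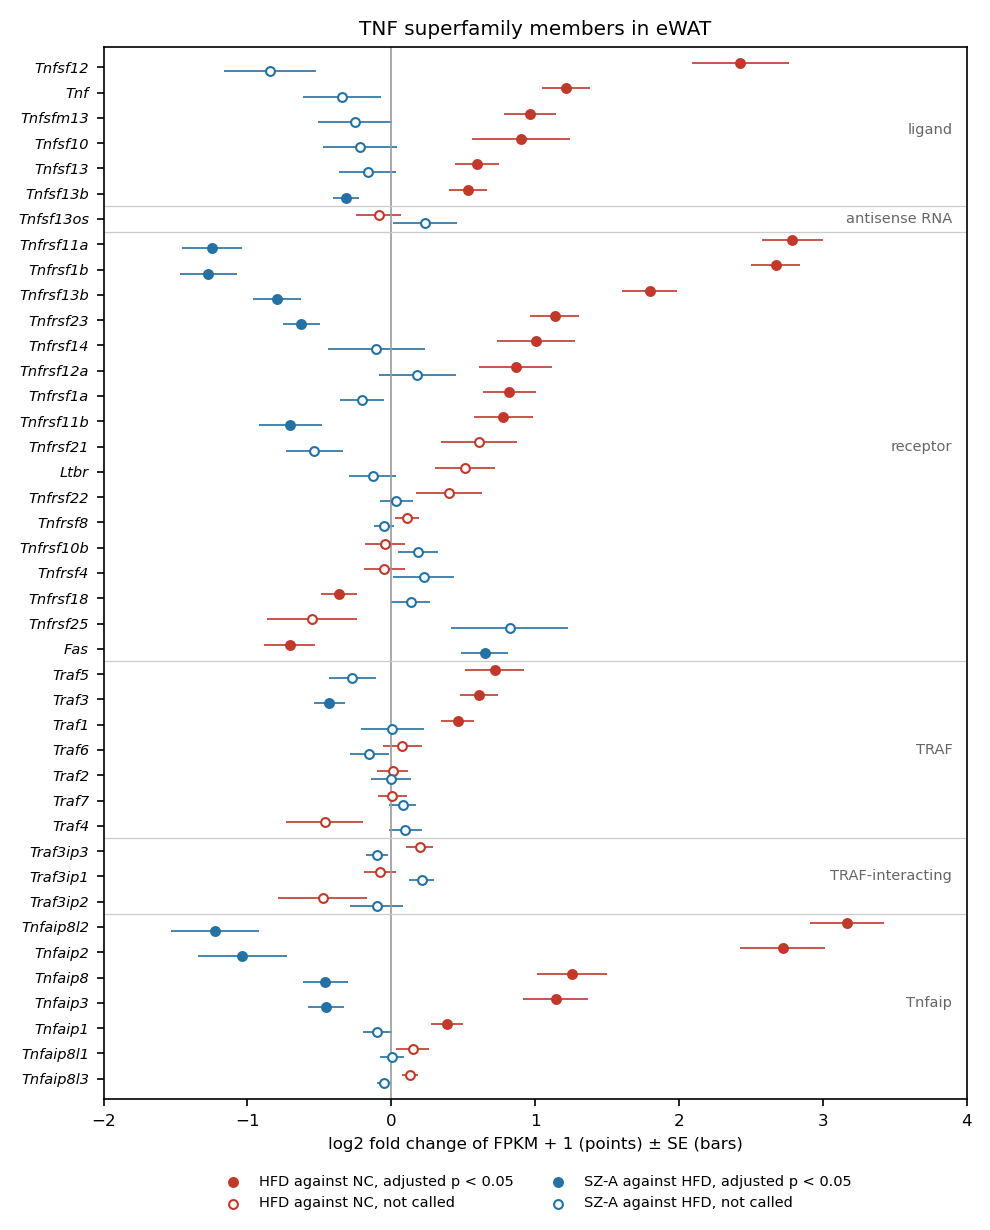
Log2 fold change of FPKM + 1 with its SE for all 41 members by role, for HFD against NC (red) and SZ-A against HFD (blue). Filled points have an adjusted p below 0.05 (24 red, 12 blue); the 2 comparisons share the HFD mice.

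Among the ligands, all 6 genes were called higher in HFD than in NC, beside 21.0% of all genes tested. Only Tnfsf13b, which encodes the B cell survival factor BAFF, was called lower in SZ-A than in HFD, beside 13.3% of all genes. The 6 are not all separate measurements, since Tnfsf12, Tnfsf13 and Tnfsfm13 share exon bases. Tnf itself was close to the limit of detection on chow, with 0.0326, 0.102 and 0.266 FPKM as lowest, median and highest value, which are 1 to 7 reads a mouse. In HFD mice it was 0.859, 1.41 and 3.13 FPKM (25 to 79 reads), and in SZ-A mice 0.331, 0.730 and 3.94 FPKM (10 to 90 reads). All HFD mice were above all NC mice, whereas the SZ-A mice spread from below the HFD group to above it. Tnf rose in HFD by 1.21 on the log2 scale (SE 0.17, adjusted p = 8.67e-05), or by 3.73 when fitted on recovered reads. In SZ-A against HFD the value was -0.35 (95% interval -0.92 to 0.23, adjusted p = 0.363). The highest SZ-A value was that of replicate 5. Without that mouse the log2 fold change was -0.56 (adjusted p = 0.0561), which still missed the threshold. All SZ-A mice were also above all NC mice in Tnf (log2 fold change 0.87, adjusted p = 0.0699), and this was called without replicate 5 (0.66, adjusted p = 0.0309) and on recovered reads (2.96, adjusted p = 0.016).

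Tnfsf12 encodes TWEAK, the ligand of the receptor Fn14, and had the highest FPKM of the ligands in all 3 groups. It was 1.04, 6.47 and 10.1 FPKM in NC (lowest, median, highest), 23.4, 29.8 and 50.3 FPKM in HFD, and 8.42, 15.5 and 54.4 FPKM in SZ-A. The HFD and NC mice did not overlap, and the mean was 5.62-fold higher in HFD (log2 fold change 2.42, SE 0.34, adjusted p = 8.78e-05). NC replicate 6 was the low NC mouse, and without it the fold change was 2.10 (adjusted p = 5.11e-06). In SZ-A, 5 mice lay below the whole HFD group, replicate 6 was within it and replicate 5 was above it. The SZ-A difference of -0.84 (SE 0.32, adjusted p = 0.0703) was not called, while without replicate 5 it was -1.10 (adjusted p = 0.00448). Tnfsf12 shares 48.3% of its exon bases with Tnfsfm13, the read-through gene of Tnfsf12 and Tnfsf13, on the same strand, so how reads were divided among these 3 genes is uncertain.

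Tnfsf13b was 0.0300, 0.450 and 0.734 FPKM in NC, 0.711, 0.905 and 1.48 FPKM in HFD, and 0.381, 0.644 and 0.794 FPKM in SZ-A. HFD overlapped the other groups only at its lower edge, with its lowest mouse inside both other ranges, whereas NC and SZ-A overlapped widely. It rose in HFD by 0.53 (SE 0.13, adjusted p = 0.00613) and fell in SZ-A against HFD by 0.32 (SE 0.09, adjusted p = 0.0259) on the log2 scale. The fall was not called without HFD replicate 1, HFD replicate 3, SZ-A replicate 4 or SZ-A replicate 7 (-0.26 to -0.30), nor with the epithelial covariate, without SZ-A replicates 2 and 7 together or with all 3 groups in the fit (adjusted p up to 0.104). Tnfsf13, which encodes APRIL, the other ligand of the receptor TACI, was at 0.348 ± 0.223, 1.07 ± 0.481 and 0.884 ± 0.645 FPKM (mean ± SD) in NC, HFD and SZ-A. Its rise of 0.60 (adjusted p = 0.00692) and that of the read-through gene Tnfsfm13 (0.96, adjusted p = 0.000924) were called, and their SZ-A values of -0.16 and -0.25 were not.

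Tnfsf10, which encodes TRAIL, a ligand of death receptors, was 0.156, 2.75 and 4.38 FPKM in NC, 2.72, 4.68 and 6.89 FPKM in HFD, and 1.27, 3.85 and 8.93 FPKM in SZ-A. The 3 ranges overlapped widely. Its rise in HFD of 0.90 (SE 0.34, adjusted p = 0.0493) was lost when any of 9 of the 13 mice was left out, and without NC replicate 6 it was 0.62 (adjusted p = 0.0784). SZ-A against HFD gave -0.22 (adjusted p = 0.558). The antisense RNA Tnfsf13os, at 1.22, 1.09 and 1.59 FPKM on average in NC, HFD and SZ-A, was called in no comparison, and since the counting is not stated to use strand its reads cannot be told apart from those of the genes it overlaps.

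**Figure D2:**
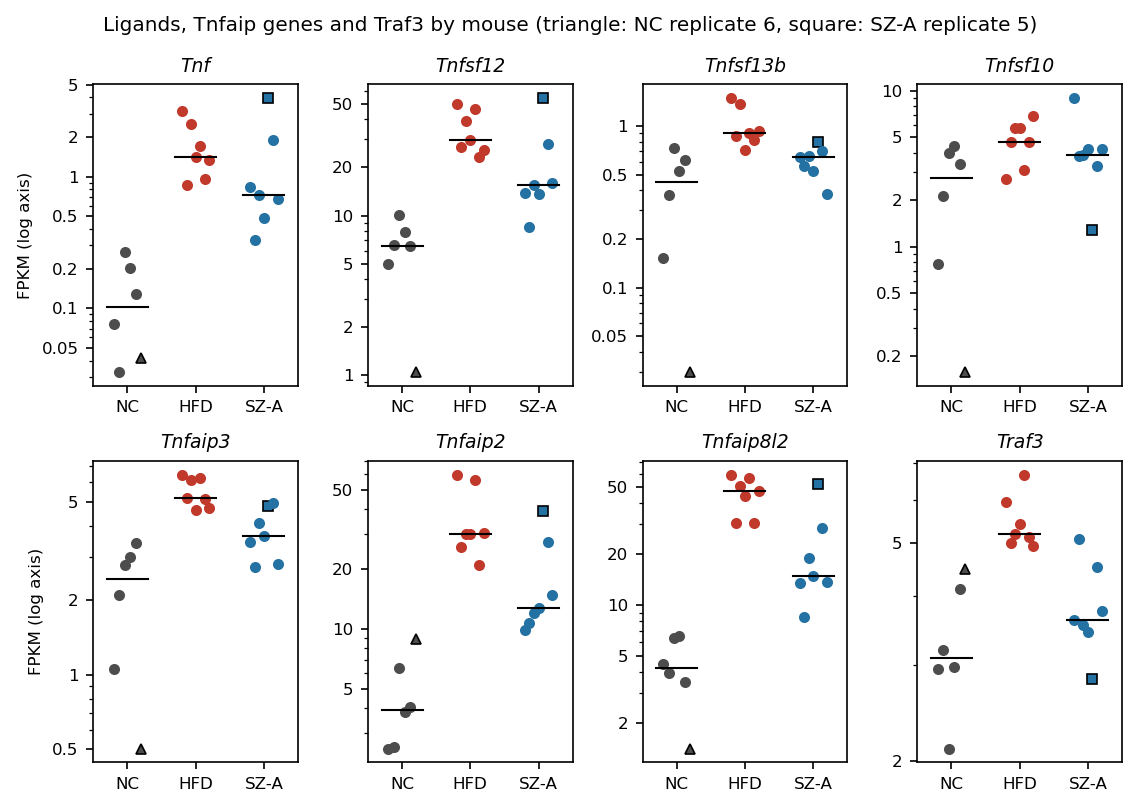
FPKM of each mouse on log axes for 4 ligands, 3 Tnfaip genes and Traf3 in NC, HFD and SZ-A, with a bar at the group median; the triangle is NC replicate 6 and the square SZ-A replicate 5. Tnf in all HFD mice (0.859 FPKM and above) is over all NC mice (0.266 FPKM and below), and the square tops the SZ-A group in Tnf, Tnfsf12, Tnfsf13b, Tnfaip2 and Tnfaip8l2.

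The receptors split into those that followed the diet and the treatment, those that followed the diet alone in these tests, and those that were called in no comparison. The pair that binds TNF is described first. Tnfrsf1a encodes TNFR1, the widely expressed receptor with a death domain, and Tnfrsf1b encodes TNFR2, which lacks one, recruits TRAF proteins and is found mainly on blood-derived and endothelial cells. Tnfrsf1b was 6.74, 9.22 and 12.8 FPKM in NC, 47.8, 60.6 and 86.1 FPKM in HFD, and 20.5, 22.5 and 46.9 FPKM in SZ-A. The 3 ranges did not overlap at all, with SZ-A between NC and HFD. The mean was 6.97-fold that of NC in HFD (log2 fold change 2.67, SE 0.17, adjusted p = 8.57e-08). It then fell by 1.27 on the log2 scale in SZ-A against HFD (SE 0.20, adjusted p = 0.000948), which left it 2.90-fold above NC (log2 fold change 1.40, SE 0.21, adjusted p = 0.00217). In each of the 3 comparisons the two-sided exact permutation test gave p = 0.000583, the smallest value it can give.

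Tnfrsf1a had the highest FPKM of all receptors in every group, with 35.8, 55.4 and 81.1 FPKM in NC, 83.3, 99.0 and 116 FPKM in HFD, and 55.6, 94.1 and 105 FPKM in SZ-A. All HFD mice were above all NC mice, and the SZ-A mice overlapped both. Its rise in HFD was 1.72-fold (log2 fold change 0.82, SE 0.19, adjusted p = 0.00324). The SZ-A value was -0.20 (95% interval -0.52 to 0.12, adjusted p = 0.333). With the epithelial score as a covariate the HFD rise was 0.03 (adjusted p = 0.952), in contrast to 2.27 (adjusted p = 0.00037) for Tnfrsf1b. Since FPKM is per length, the pair can be set against each other within a mouse. The ratio of Tnfrsf1b to Tnfrsf1a FPKM had a median of 0.163 in NC (range 0.123 to 0.249), of 0.664 in HFD (range 0.529 to 0.812) and of 0.311 in SZ-A (range 0.223 to 0.498). Every HFD mouse had a higher ratio than every other mouse, and NC and SZ-A overlapped only through NC replicate 6, the highest of its group. This ratio was chosen after the values had been seen and is given without a test.

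Macrophage markers moved in the same direction as Tnfrsf1b. Of 14 such genes 13 were called higher in HFD than in NC and 12 lower in SZ-A than in HFD, and 9 remained higher in SZ-A than in NC. Their summed FPKM spanned 213 to 663 on chow, 3037 to 9314 on the high-fat diet with saline and 1262 to 4358 with SZ-A (the highest being replicate 5), and Adgre1, the gene for F4/80, was at 5.94 ± 4.13, 204 ± 41.9 and 59.6 ± 30.6 FPKM (mean ± SD). Fibroblast markers did likewise, with 6 of 8 higher and 1 lower in HFD and 7 lower in SZ-A, whereas 1 of 11 T cell markers was called higher in HFD and 1 lower in SZ-A. Of the B cell list only Cd79a, Cd79b and Fcrla were found, and none was called. The part of these cells in the members' values was not tested, and in whole tissue fewer cells of a type and less RNA per cell cannot be told apart.

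**Figure D3:**
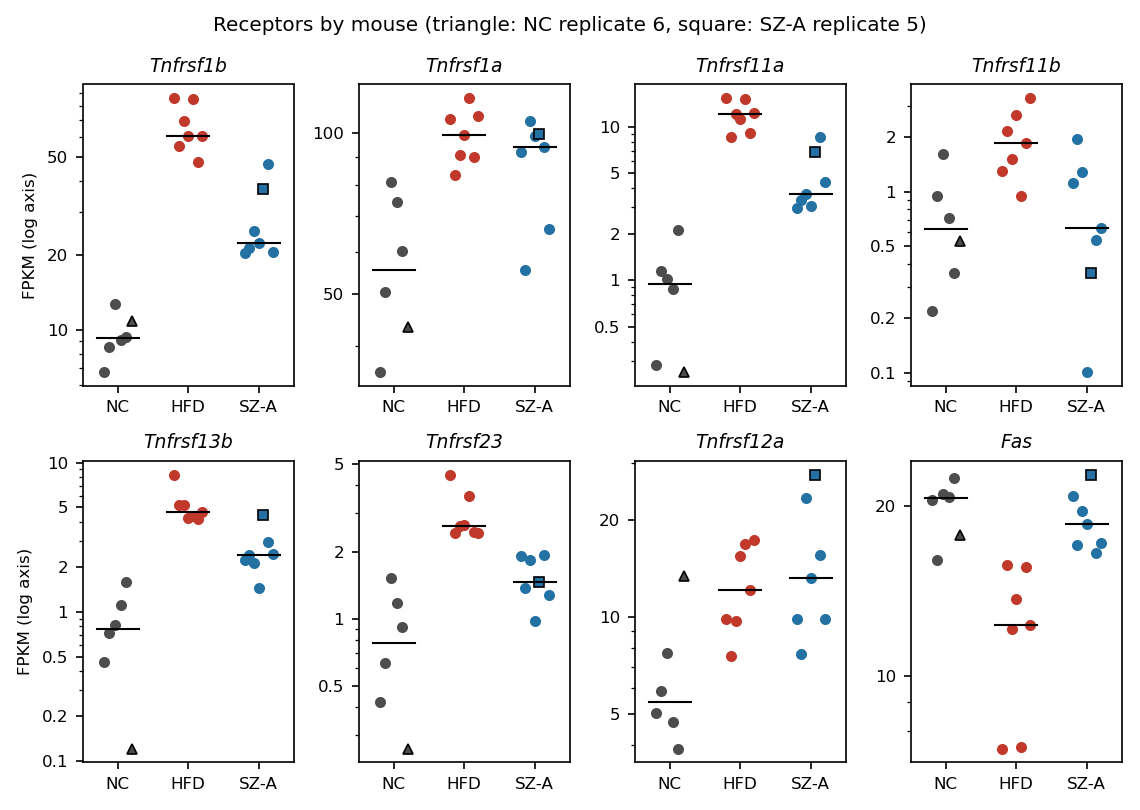
FPKM of each mouse on log axes for 8 receptors in NC, HFD and SZ-A, with a bar at the group median; the triangle is NC replicate 6 and the square SZ-A replicate 5. Tnfrsf1b falls into 3 separate bands with SZ-A in the middle, Tnfrsf12a has medians of 12.1 FPKM in HFD and 13.2 FPKM in SZ-A, and Fas runs the other way.

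Tnfrsf11a and Tnfrsf11b belong to the RANK system, known from bone: Tnfrsf11a encodes RANK, a receptor of myeloid cells, and Tnfrsf11b encodes osteoprotegerin, a secreted decoy that binds the RANK ligand. Tnfrsf11a was 0.252, 0.954 and 2.12 FPKM in NC, 8.60, 12.3 and 15.4 FPKM in HFD, and 2.97, 3.65 and 8.63 FPKM in SZ-A. HFD and NC did not overlap, nor did SZ-A and NC, and a single SZ-A mouse, replicate 6, passed the lowest HFD mouse. It was 12.7-fold higher in HFD than in NC (log2 fold change 2.79, SE 0.21, adjusted p = 4.28e-07) and fell by 1.25 in SZ-A (SE 0.21, adjusted p = 0.00122). Against NC it stayed 4.94-fold higher (log2 fold change 1.54, adjusted p = 0.00408). Tnfrsf11b was 0.220, 0.627 and 1.61 FPKM in NC, 0.951, 1.87 and 3.30 FPKM in HFD, and 0.101, 0.632 and 1.97 FPKM in SZ-A. Its ranges overlapped in each pair of groups. The rise of 0.78 (SE 0.20, adjusted p = 0.00832) and the fall of 0.70 (SE 0.22, adjusted p = 0.0313) were called. The fall was lost when HFD replicate 2, 4 or 7 was left out, and likewise SZ-A replicate 4 or 7. It was also lost with a block for the replicate number (adjusted p = 0.0518), and the rise with the epithelial score as a covariate. The ligand of this pair, Tnfsf11, was not analysed here.

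Tnfrsf13b encodes TACI, the receptor that BAFF and APRIL share. It was 0.121, 0.764 and 1.57 FPKM in NC, 4.19, 4.66 and 8.28 FPKM in HFD, and 1.44, 2.39 and 4.48 FPKM in SZ-A. HFD lay wholly above NC, while SZ-A overlapped both: its lowest mouse, replicate 4, was below the highest NC mouse, and its highest, replicate 5, was above the lowest HFD mouse. The HFD mean was 6.45-fold that of NC (log2 fold change 1.80, SE 0.19, adjusted p = 7.61e-06). It fell in SZ-A by 0.80 (SE 0.17, adjusted p = 0.00444) and stayed 3.22-fold above NC (log2 fold change 0.9995, SE 0.21, adjusted p = 0.0123). The last call did not hold with the epithelial score as a covariate or with a block for the replicate number. It was also lost without the 2 libraries of each group that were richest in epithelial RNA (0.79), namely NC replicates 1 and 6 and SZ-A replicates 2 and 7. The adjusted p was up to 0.098 over these alternatives.

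Tnfrsf23 and Tnfrsf22 are neighbours on chromosome 7 and encode mouse decoy receptors for TRAIL. Tnfrsf23 was 0.260, 0.775 and 1.52 FPKM in NC, 2.42, 2.63 and 4.46 FPKM in HFD, and 0.976, 1.47 and 1.93 FPKM in SZ-A. All HFD mice were above all mice of both other groups. The rise was 1.14 (SE 0.17, adjusted p = 0.00017) and the fall 0.63 (SE 0.13, adjusted p = 0.00392) on the log2 scale, and in both the exact permutation test gave its smallest value, p = 0.000583. Tnfrsf22 was called in no comparison, with means of 1.47 ± 1.003, 2.02 ± 0.204 and 2.13 ± 0.558 FPKM in NC, HFD and SZ-A.

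Fas, the death receptor of the Fas ligand, was the only member called lower in HFD and higher in SZ-A. It was 16.1, 20.6 and 22.3 FPKM in NC, 7.46, 12.3 and 15.7 FPKM in HFD, and 16.5, 18.6 and 22.7 FPKM in SZ-A. The HFD mice were below every mouse of the other groups, and NC and SZ-A overlapped. Fas fell by 0.71 on the log2 scale in HFD (SE 0.18, adjusted p = 0.00672) and rose by 0.65 in SZ-A (SE 0.16, adjusted p = 0.0114). SZ-A against NC gave -0.06 (95% interval -0.32 to 0.20). The 2 lowest HFD mice, at 7.46 and 7.51 FPKM, were well below the other 5. The fall was -0.84 with the epithelial score as a covariate and was then not called (adjusted p = 0.0974). Tnfrsf18, which encodes GITR, was the other member called lower in HFD (-0.36, SE 0.13, adjusted p = 0.0337). At 7 to 37 reads a mouse it was thinly covered, 27.2% of its exon bases overlap an antisense gene, and its call was lost in 6 of the 13 leave-one-out fits.

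Tnfrsf12a and Tnfrsf14 rose with the diet and were not called in SZ-A against HFD. Tnfrsf12a, the gene for Fn14, was 3.89, 5.45 and 13.4 FPKM in NC, 7.52, 12.1 and 17.3 FPKM in HFD, and 7.67, 13.2 and 27.6 FPKM in SZ-A. NC replicate 6 held the high NC value, and the HFD rise of 0.86 (SE 0.26, adjusted p = 0.0155) was 1.06 without it (adjusted p = 0.00117). The rise was not called with a block for the replicate number or with the epithelial score as a covariate (adjusted p up to 0.118). The SZ-A difference was 0.18 (95% interval -0.38 to 0.75, adjusted p = 0.642). Against NC, SZ-A gave 1.05 (adjusted p = 0.0779), which was called without NC replicate 6 (1.24, adjusted p = 0.0226). Tnfrsf14, the gene for HVEM, was 0.143, 1.22 and 4.20 FPKM in NC, 2.66, 3.73 and 4.26 FPKM in HFD, and 1.31, 2.66 and 16.5 FPKM in SZ-A. SZ-A replicate 5 was far above the next SZ-A mouse (3.57 FPKM). Tnfrsf14 rose by 1.01 in HFD (SE 0.27, adjusted p = 0.00961), and its SZ-A value of -0.10 (adjusted p = 0.846) became -0.45 without that mouse (adjusted p = 0.0452).

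Another 7 receptors were called in no comparison: Ltbr, Tnfrsf21, Tnfrsf22, Tnfrsf8, Tnfrsf10b, Tnfrsf4 and Tnfrsf25. Ltbr, the receptor of lymphotoxin, was abundant, at 27.8 ± 12.4, 37.9 ± 4.93 and 35.6 ± 11.0 FPKM (mean ± SD) in NC, HFD and SZ-A. Tnfrsf21, which encodes the death domain receptor DR6, was at 12.1 ± 5.75, 17.9 ± 4.46 and 12.2 ± 3.88 FPKM, with log2 values of 0.61 (adjusted p = 0.0786) in HFD against NC and -0.54 (adjusted p = 0.063) in SZ-A against HFD. It was called in the latter without HFD replicate 6 or without SZ-A replicate 2, 6 or 7. Tnfrsf25, known from T cells, ranged from 0.501 to 15.3 FPKM within SZ-A, where replicate 5 was again the highest. Tnfrsf4 and Tnfrsf8, costimulatory receptors of lymphocytes, stayed at means below 1 FPKM in all groups (0.202 to 0.907 FPKM).

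**Figure D4:**
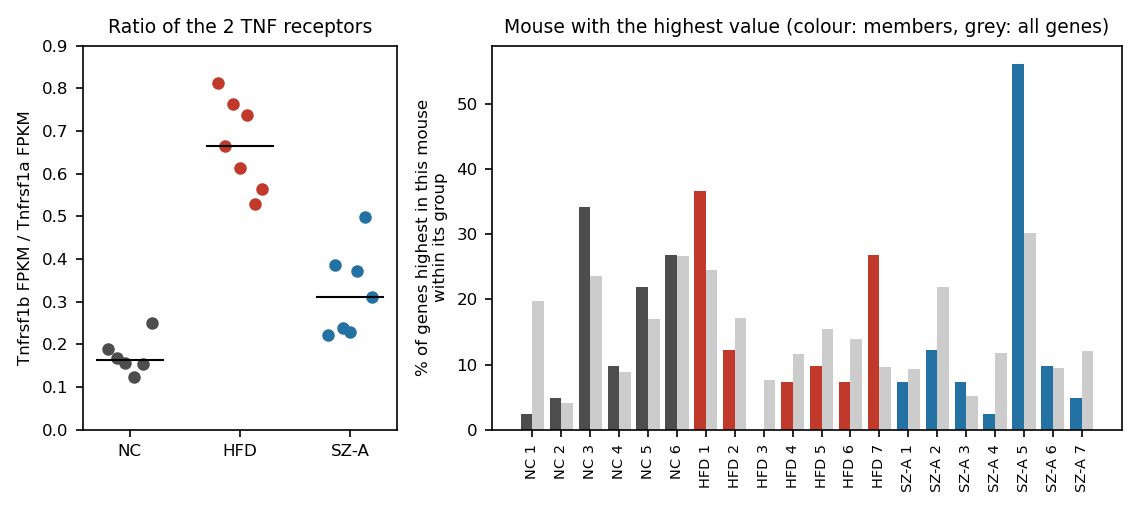
Left, the ratio of Tnfrsf1b to Tnfrsf1a FPKM in each mouse with the group median (0.163 in NC, 0.664 in HFD, 0.311 in SZ-A). Right, the percentage of the 41 members (coloured bars) and of all genes (grey bars) that had their highest value within the group in each mouse; SZ-A replicate 5 held 56.1% of members and 30.2% of all genes.

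The 7 Traf genes encode the adaptors and ubiquitin ligases that receptors without a death domain bind directly. Of these 7, 3 rose in HFD (Traf1, Traf3 and Traf5) and none fell, beside 21.0% of all genes called higher. In SZ-A against HFD 1 fell (Traf3), which is near the 13.3% of all genes called lower. Traf3, which restrains the alternative NF-kB route by having the kinase NIK degraded, was 2.11, 3.08 and 4.48 FPKM in NC, 4.94, 5.20 and 6.67 FPKM in HFD, and 2.83, 3.62 and 5.08 FPKM in SZ-A. HFD was wholly above NC, and a single SZ-A mouse, replicate 2, reached the HFD range. Traf3 rose by 0.61 (SE 0.13, adjusted p = 0.0026) and fell by 0.43 (SE 0.11, adjusted p = 0.0115), and SZ-A against NC gave 0.18 (95% interval -0.16 to 0.51). The fall was not called with a block for the replicate number (adjusted p = 0.0503). Map3k14, the gene for NIK, rose and fell with Traf3, at 1.98 ± 0.491, 3.23 ± 0.417 and 2.32 ± 0.547 FPKM in NC, HFD and SZ-A (log2 fold changes 0.52 and -0.36, adjusted p = 0.00331 and 0.0294). It is named as the target of Traf3, after its values had been seen.

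Traf1, which is itself induced by NF-kB, was 0.101, 0.560 and 0.870 FPKM in NC, 0.990, 1.10 and 1.21 FPKM in HFD, and 0.480, 0.851 and 4.56 FPKM in SZ-A. All HFD mice were above all NC mice, and 5 of the 7 SZ-A mice were below the HFD group while replicate 5 was far above it. Traf1 rose by 0.46 in HFD (SE 0.11, adjusted p = 0.0059). In SZ-A against HFD it was 0.01 with all mice and -0.23 without replicate 5 (adjusted p = 0.0364), so that 1 mouse turned the direction. Traf5 was 0.376, 1.64 and 2.48 FPKM in NC, 2.21, 2.78 and 4.18 FPKM in HFD, and 1.63, 2.07 and 4.09 FPKM in SZ-A, with overlap between all groups. Its rise was 0.72 (SE 0.21, adjusted p = 0.0128) and its SZ-A value -0.27 (adjusted p = 0.232). Traf2 and Traf6, the adaptors nearest to TNFR2 and to interleukin-1 and Toll-like receptors, had HFD against NC values of 0.01 and 0.08 with adjusted p of 0.956 and 0.68. Traf4 and Traf7 were not called either (-0.46 and 0.01), nor were Traf3ip1, Traf3ip2 and Traf3ip3 in any comparison (-0.58 to 0.21).

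In HFD 5 of the 7 Tnfaip genes rose, with a median log2 fold change of 1.14, beside 21.0% of all genes and a median of -0.04. In SZ-A against HFD 4 of these 5 fell, with a median of -0.46 over the 7, beside 13.3% of all genes and a median of 0.03. With the epithelial score as a covariate none of these 4 falls was called, at -0.84 for Tnfaip8l2 (adjusted p = 0.0653), -0.78 for Tnfaip2 (adjusted p = 0.116), -0.28 for Tnfaip3 and -0.30 for Tnfaip8. Those of Tnfaip2, Tnfaip3 and Tnfaip8 were also not called without SZ-A replicates 2 and 7, and those of Tnfaip3 and Tnfaip8 not with all 3 groups in the fit (adjusted p up to 0.13 and 0.197 over these alternatives). Tnfaip8l2 encodes TIPE2, an immune cell protein that dampens Toll-like and T cell receptor signals. It was 1.41, 4.21 and 6.53 FPKM in NC, 30.5, 47.1 and 59.1 FPKM in HFD, and 8.52, 14.9 and 51.8 FPKM in SZ-A. Both high-fat groups were wholly above NC, and in SZ-A only replicate 5 was within the HFD range. The HFD mean was 10.4-fold that of NC (log2 fold change 3.17, SE 0.26, adjusted p = 6.97e-07), and the SZ-A fall was 1.22 (SE 0.31, adjusted p = 0.0116). SZ-A stayed 4.90-fold above NC (log2 fold change 1.94, adjusted p = 0.00839). That last call was lost with the epithelial covariate and with the replicate block (adjusted p up to 0.066).

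Tnfaip2, a protein of membrane protrusions in myeloid and endothelial cells, was 2.49, 3.91 and 8.84 FPKM in NC, 21.0, 30.1 and 59.8 FPKM in HFD, and 9.86, 12.7 and 39.0 FPKM in SZ-A. Again both high-fat groups were above all NC mice, and SZ-A replicates 5 and 6 were within the HFD range. It rose 7.74-fold in HFD (log2 fold change 2.72, SE 0.29, adjusted p = 9.35e-06) and fell by 1.04 in SZ-A (SE 0.31, adjusted p = 0.0265). That fall was -1.24 without replicate 5 (adjusted p = 0.00414), and it was not called without HFD replicate 1 or 5, or without SZ-A replicate 1, 3 or 4 (highest adjusted p = 0.0609). SZ-A against NC was 1.69 (adjusted p = 0.0116), which was not called with the epithelial score as a covariate (adjusted p = 0.0935).

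Tnfaip3, the ubiquitin-editing enzyme that switches NF-kB signalling off, was 0.503, 2.44 and 3.42 FPKM in NC, 4.65, 5.19 and 6.45 FPKM in HFD, and 2.74, 3.63 and 4.98 FPKM in SZ-A. HFD was wholly above NC, and 2 SZ-A mice, replicates 5 and 6, reached the HFD range. It rose 2.57-fold (log2 fold change 1.14, SE 0.23, adjusted p = 0.00136) and fell by 0.46 (SE 0.13, adjusted p = 0.018), while SZ-A against NC gave 0.69 (adjusted p = 0.136). Tnfaip8, a relative of Tnfaip8l2, was 0.631, 2.87 and 4.44 FPKM in NC, 6.25, 7.50 and 11.0 FPKM in HFD, and 4.05, 4.94 and 8.82 FPKM in SZ-A. It rose by 1.26 (SE 0.24, adjusted p = 0.00112), or by 1.02 without NC replicate 6 (adjusted p = 0.000151). Its fall of 0.46 (SE 0.15, adjusted p = 0.044) was lost in 10 of the 14 leave-one-out fits. Tnfaip1 rose 1.31-fold in HFD (log2 fold change 0.39, adjusted p = 0.0142), with all HFD mice above all NC mice, and gave -0.10 in SZ-A against HFD. Tnfaip8l1 and Tnfaip8l3, at means of 0.0710 to 0.744 FPKM, were not called.

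Other genes of the pathway were taken from lists of textbook members. Of 22 NF-kB pathway genes 12 rose and 1 fell in HFD, 7 fell in SZ-A against HFD, and none was called in SZ-A against NC. Of all genes tested 21.0% were called higher and 20.1% lower in HFD, and 13.3% lower in SZ-A against HFD. The largest falls were in Nfkbie, an inhibitory IkB protein (-0.72, SE 0.15, adjusted p = 0.00426), in the NF-kB subunits Rel (-0.68, SE 0.14, adjusted p = 0.00361) and Nfkb1 (-0.58, SE 0.09, adjusted p = 0.000722), and in the TRAF-binding Tank (-0.40, SE 0.11, adjusted p = 0.0218). Median log2 fold changes of the list were 0.39 and -0.19, beside -0.04 and 0.03 over all genes. Of 24 adaptor and cell death genes 7 rose and 2 fell in HFD, and in SZ-A 3 fell and 1 rose, no more than the share of all genes called there (22.8%). Those that fell were the kinases Ripk3 (-0.68) and Ripk1 (-0.46) and the pseudokinase Mlkl (-0.56). Birc2, an inhibitor of apoptosis that works with TRAF proteins, ran the other way like Fas, with -0.61 in HFD (adjusted p = 0.00652) and 0.46 in SZ-A (adjusted p = 0.0112), and was likewise named after its values had been seen.

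TNF and its receptors are shed from the cell surface by the metalloprotease ADAM17. Of 6 shedding genes Adam17 and Frmd8, which keeps ADAM17 and its partners stable at the surface, rose in HFD, and Adam17, Frmd8 and Adam10 fell in SZ-A. The 2 called in HFD, both higher, stand beside 21.0% of all genes called higher there (41.1% in either direction). In SZ-A against HFD 13.3% of all genes were called lower. Adam17 was at 5.40 ± 1.44, 17.9 ± 2.23 and 8.77 ± 2.17 FPKM (mean ± SD) in NC, HFD and SZ-A, with log2 fold changes of 1.58 (SE 0.14, adjusted p = 1.56e-06) and -0.97 (SE 0.13, adjusted p = 0.000428). Frmd8 gave 1.46 and -0.76 (adjusted p = 2.87e-06 and 0.00203), and was still higher in SZ-A than in NC (0.70, adjusted p = 0.031). Of 10 superfamily genes with other symbols 4 were found, Ltb, Eda, Eda2r and Relt. Eda2r, the receptor of an ectodysplasin isoform, was the only one called and is named after its values had been seen. It rose in HFD by 0.78 (SE 0.11, adjusted p = 9.81e-05), was also higher in SZ-A than in NC (0.69, adjusted p = 0.00361), and was at 0.325 ± 0.141, 1.28 ± 0.353 and 1.15 ± 0.320 FPKM in NC, HFD and SZ-A.

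**Figure D5:**
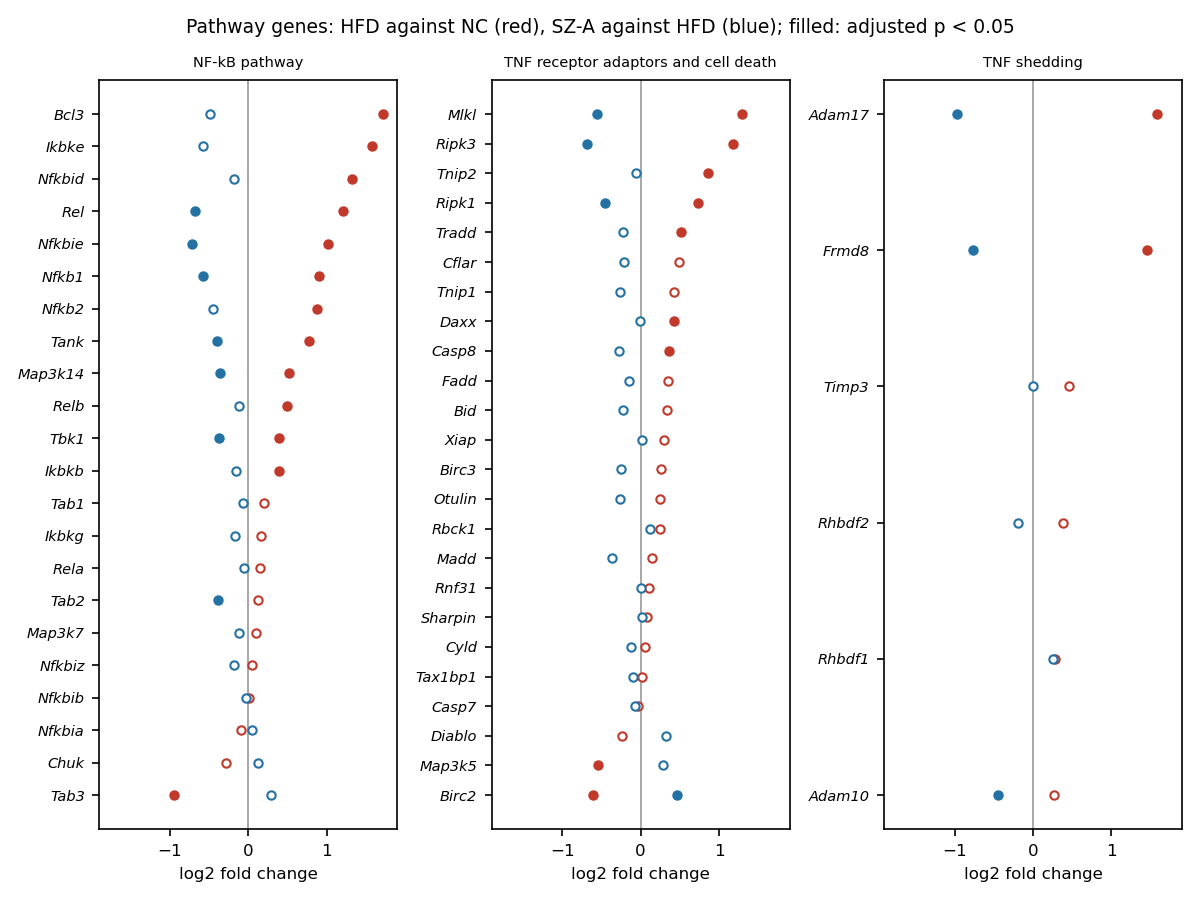
Log2 fold changes of FPKM + 1 for the NF-kB, adaptor and cell death, and shedding lists, in HFD against NC (red) and SZ-A against HFD (blue); filled points have an adjusted p below 0.05. In the NF-kB list 12 red points are called above 0 and 7 blue points below 0, and the 2 comparisons share the HFD mice.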

How the data were processed

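Total RNA of eWAT was sequenced as paired-end Illumina reads, which the authors aligned to GRCm38 with HISAT2; featureCounts 1.5.0-p3 is named in the submitters' processing notes. The deposited values are FPKM per gene and mouse, made by the authors, with genes filtered by a rule that is not given in the sources used here and with no value at 0. Gene symbols came from a reference table of gene names (14765 of 14776 gene IDs matched) and exon lengths from GENCODE release 21 for mouse. Library sizes were recovered from the FPKM steps: 95.9% to 96.3% of values below 1000 reads came out within 0.01 of a whole read, although those of Fas did not, so its read numbers are approximate. In some mice the recovered size was below the reads on genes, as in HFD replicate 1 (15406890 against 17216017). These sizes are therefore scaling values and not counts of mapped fragments. Of the 41 members 14 had under 10 reads in at least 1 mouse.

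Groups were compared 2 at a time with limma 3.58.1 in R 4.3.3 (lmFit, eBayes with trend) on log2(FPKM + 1), over those genes whose mean reached 0.1 FPKM in the mice compared, with Benjamini-Hochberg adjustment over all genes tested. A gene was called at an adjusted p below 0.05, two-sided, and a log2 fold change above 1.5 was counted as a second threshold. Single members were also compared by two-sided exact permutation tests. The labels give separate mice per sample, and p-values measure the spread between these mice. The tests were checked on simulated data. Sets of genes were described by counts and medians only.

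Values by mouse are given for Tnf, Tnfrsf1a and Tnfrsf1b and for the called members with the largest fold changes, those called in SZ-A against HFD first, 22 in all. From each pathway list at most 4 genes were named, the called ones with the largest fold change in SZ-A against HFD, and exceptions are marked. From the adaptor and cell death list 1 gene is not reported here. The members, lists and tests were chosen with earlier results of these data known. Alternatives were voom on recovered reads, a pseudocount of 0.1, a minimum mean of 1 FPKM or none, a fit of all 3 groups together, scaling by median ratios, a block for the replicate number, a covariate for the epithelial marker score, and leaving out mice. Promoter windows came from RefSeq (GRCm38.p6); the kappaB motif was searched in its usual 10-base form on both strands.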

Additional observations from a re-analysis of the deposited data

Results flagged for a closer look

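In each group the highest and lowest mouse was set against the rest by Dixon's test on log2(FPKM + 1), for the 22 members given by mouse. Of 66 groups tested 5 held such a mouse, where chance alone would mark about 1 in 20. SZ-A replicate 5 stood above its group in Tnfrsf14 at 16.5 FPKM (next mouse 3.57 FPKM) and in Traf1 at 4.56 FPKM (next mouse 1.07 FPKM); it also had the highest mitochondrial share and macrophage marker sum of its group, and the part of either was not tested. NC replicate 6, the mouse with 444 FPKM of adipocyte markers, stood below its group in Tnfaip8 at 0.631 FPKM (next mouse 2.71 FPKM) and in Tnfsf12 at 1.04 FPKM (next mouse 4.95 FPKM). HFD replicate 1 stood above its group in Tnfrsf13b at 8.28 FPKM (next mouse 5.19 FPKM), and it was the HFD mouse with the highest macrophage marker sum, 9314 FPKM.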

How the results depend on the processing

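The 3 calls of Tnfrsf1b and the 3 of Tnfrsf11a kept their direction and their side of the threshold under every alternative run. With the epithelial score as a covariate, members called fell to 9 in HFD against NC, 9 in SZ-A against HFD and 2 in SZ-A against NC (all genes 3056, 2834 and 267), of which 7, 7 and 2 were shared with the calls reported. With all 3 groups in the fit there were 12 members and 1527 genes in SZ-A against NC and 2089 genes in SZ-A against HFD. At the second threshold of 1.5, members and all genes were 6 and 1172 in HFD against NC, 0 and 127 in SZ-A against HFD, and 3 and 263 in SZ-A against NC. These counts depended on the scale. In the same order they were 16 and 2239, 1 and 458, and 5 and 415 with voom on recovered reads. At a pseudocount of 0.1 they were 12 and 2036, 0 and 337, and 5 and 385. Leaving out 1 mouse gave 5 to 9 members and 423 to 860 genes in SZ-A against NC. It gave 22 to 25 members and 5237 to 6645 genes in HFD against NC, and 8 to 15 members and 2352 to 4296 genes in SZ-A against HFD. Some log2 fold changes reversed. With the epithelial covariate in HFD against NC these were Tnfsf13b (-0.0175), Tnfrsf14 (-0.40), Tnfsf10 (-0.51) and Traf1 (-0.00390), and in SZ-A against HFD Tnfrsf14 (0.36), Tnfsfm13 (0.00998), Tnfrsf1a (0.00905) and Tnfsf13 (0.11). Without the libraries highest in epithelial markers, chosen after seeing the data, they were Tnfrsf14 (0.22) and Tnfsf13 (0.0102) in SZ-A against HFD and Tnfrsf11b (-0.19) in SZ-A against NC. Traf1 in SZ-A against HFD was -0.10 at a pseudocount of 0.1 and -0.18 on recovered reads. Leaving out 1 mouse moved Traf1 from -0.23 to 0.0910 and Tnfrsf14 from -0.45 to 0.0411 in SZ-A against HFD, and Tnfrsf11b from -0.0463 to 0.21 in SZ-A against NC. The cause was not tested.

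The replicate numbers did not pair the mice: correlations of same-numbered mice's deviations from the group means ran from -0.410 to 0.584 over the comparisons. With the replicate block 21, 10 and 3 members and, in SZ-A against NC, 173 genes were called. Of 1462 values of named members under an alternative, 1352 kept direction and side of the threshold, 70 lost the threshold, 21 gained it and 19 reversed. How detection depends on a member's level was not tested.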

Other observations

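By mean FPKM among the 17 receptors, Tnfrsf1b ranked 5 in NC, rank 2 in HFD and rank 3 with SZ-A, and Tnfrsf11a ranked 12, 6 and 7. Fas, at rank 3 in NC, was at 7 in HFD and 4 in SZ-A. In HFD, Tnfrsf11a and Fas had almost the same mean (12.1 ± 2.68 and 12.1 ± 3.43 FPKM, SD, n = 7), whereas in NC they were at 0.953 ± 0.688 and 19.7 ± 2.34 FPKM (SD, n = 6). The ratio of Tnfrsf11a to Tnfrsf11b, the receptor RANK and its decoy, had a median of 1.22 in NC, a median of 4.88 in HFD and one of 6.90 with SZ-A, over ranges of 0.471 to 6.00, 3.77 to 16.1 and 1.71 to 30.5. The ranges of this ratio overlapped widely, and the highest value was that of SZ-A replicate 4, whose Tnfrsf11b rested on 5 reads. These ranks and ratios were chosen after the values had been seen and were not tested.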
